A study of Mus musculus with 2 samples.

Results

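The T cells described here were 458 of the 14097 cells profiled from mouse distal colon adenomas, 134 of 6189 cells in a library classed CIN_high and 324 of 7908 in a library classed CIN_low. They were the cells that the authors annotated T_NK and that held a transcript of at least 2 of the 4 genes Cd3d, Cd3e, Cd3g and Trac, which left 190 of the 648 T_NK cells outside. The cells were thus chosen by their measured expression of those 4 genes, whose high level is no result. Single cells were profiled on a droplet platform from distal adenomas of mice aged 25 weeks, and the G0+T group and the G4+T group each gave 1 library. Mice of both groups were Apcmin;LSL-mTERT, so they shared the Apc allele that causes intestinal adenomas and a mouse Tert allele behind a stop cassette. The labels do not give the Cre that removes the cassette, the cells in which it acts or the number of mice behind a library. The CIN class was the same for all cells of a library, and the labels conflict on which library is G0+T, so the libraries are called CIN_high and CIN_low throughout. With 1 library per class no difference between them has a replicate check, and no p-value is given.

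T cells recognise antigen through a receptor made of either alpha and beta chains or gamma and delta chains, and both kinds signal through the CD3 chains. Alpha-beta cells divide into CD8 cells, which kill, and CD4 cells, which help or, when they make the transcription factor FOXP3, restrain other immune cells as regulatory T cells. In the gut wall, regulatory T cells keep inflammation in check, and gamma-delta cells and some CD4 cells make IL-17, a cytokine that draws in neutrophils and is known to speed the growth of intestinal adenomas. The delta chain genes lie inside the alpha chain locus, and a rearranged alpha chain deletes them from that chromosome.

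The 3 CD3 genes used by the rule sit next to each other on chromosome 9, with the start sites of Cd3g (chr9:44969572-44980431) and Cd3d (chr9:44981786-44987339) 1355 bases apart on opposite strands and Cd3e beyond them (chr9:44998740-45009627). Their promoters are printed because these genes decide which cells count as T cells, that of Cd163l1 because it was found almost only in gamma-delta cells, and that of Il17a because its cells lay mostly in different gates in the 2 libraries. Each runs from 250 bases before to 50 bases after the start site (RefSeq, GRCm38.p6), 5′ to 3′ on the strand of the gene. Capitals mark an ETS core (AGGAAG) in the CD3 genes and, in the other genes, a loose AP-1 pattern (TGANTCA, any base at N), each on either strand.
Cd3g (chr9:44980382-44980681, minus strand): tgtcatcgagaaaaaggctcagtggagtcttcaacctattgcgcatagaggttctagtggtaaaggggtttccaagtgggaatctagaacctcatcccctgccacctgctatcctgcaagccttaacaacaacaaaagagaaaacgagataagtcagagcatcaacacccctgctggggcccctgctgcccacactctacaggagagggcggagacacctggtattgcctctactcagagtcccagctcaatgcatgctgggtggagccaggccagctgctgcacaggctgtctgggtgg
Cd3d (chr9:44981536-44981835, plus strand): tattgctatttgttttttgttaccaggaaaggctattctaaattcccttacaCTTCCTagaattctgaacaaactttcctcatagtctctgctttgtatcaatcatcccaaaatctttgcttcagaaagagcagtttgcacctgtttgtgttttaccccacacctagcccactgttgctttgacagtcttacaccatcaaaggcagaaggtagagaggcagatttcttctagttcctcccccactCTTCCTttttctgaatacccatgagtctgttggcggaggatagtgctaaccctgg
Cd3e (chr9:45009562-45009861, minus strand): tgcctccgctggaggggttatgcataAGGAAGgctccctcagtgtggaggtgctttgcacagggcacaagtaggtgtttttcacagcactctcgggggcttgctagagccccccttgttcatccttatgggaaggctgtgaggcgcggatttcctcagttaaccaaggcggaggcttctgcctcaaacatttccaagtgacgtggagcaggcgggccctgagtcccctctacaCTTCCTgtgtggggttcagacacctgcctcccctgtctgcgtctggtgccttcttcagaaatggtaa
Cd163l1 (chr7:140218017-140218316, plus strand): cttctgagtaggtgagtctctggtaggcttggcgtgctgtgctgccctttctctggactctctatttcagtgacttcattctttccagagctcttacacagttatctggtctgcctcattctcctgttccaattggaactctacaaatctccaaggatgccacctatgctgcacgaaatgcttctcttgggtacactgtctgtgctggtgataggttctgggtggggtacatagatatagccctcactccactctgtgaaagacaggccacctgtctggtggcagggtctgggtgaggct
Il17a (chr1:20730655-20730954, plus strand): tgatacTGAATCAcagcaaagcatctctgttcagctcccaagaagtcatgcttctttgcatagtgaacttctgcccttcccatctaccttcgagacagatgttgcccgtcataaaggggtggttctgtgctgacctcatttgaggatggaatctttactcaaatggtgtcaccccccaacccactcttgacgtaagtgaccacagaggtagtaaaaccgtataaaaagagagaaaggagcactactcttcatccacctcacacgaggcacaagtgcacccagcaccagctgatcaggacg
The ETS core was found in 35.35% of 32851 mouse promoters of this length, 2 times each in Cd3d and Cd3e and 0 times in Cd3g. A RUNX core (TGTGGT), present in 16.76% of promoters, had 0 matches in the 3 CD3 genes. Il17a held 1 match to the loose AP-1 pattern (TGAATCA), 244 bases before the start site, against 7.808% of all promoters with at least 1. Cd163l1 held 0. These matches describe the letters only.

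Among the T cells, those that showed more of the 4 genes were deeper. All 4 were detected in 60 CIN_high and 161 CIN_low cells, 3 in 48 and 113 cells, and 2 in 26 and 50 cells. The median depth fell from 5394.5 (CIN_high) and 4700 UMIs (CIN_low) in cells with all 4 genes to 2516 and 2023.5 UMIs in cells with 2. In the 47 T_NK cells just outside the rule, with 1 gene, it was 1492 and 1741.5 UMIs, and these cells held 6 UMIs of Cd3d, 13 of Cd3e, 27 of Cd3g and 15 of Trac in all. The 76 cells just inside, with 2 genes, held 121, 35, 192 and 42 UMIs of the same genes. The other T_NK cells outside the rule, 79 and 64 cells with 0 of the genes, were not shallow. Their median depths were 3350 and 3700.5 UMIs. NK cells share this annotation, and their activating receptor gene Ncr1 had 0 UMIs in all 458 T cells, as had the receptor genes Klra8 and Klra4. Ncr1 was detected in 39.0% (CIN_high) and 35.6% (CIN_low) of the T_NK cells outside the rule. Klra8 (1.0% and 0%) and Klra4 (0% and 4.44%) were rare there too. Other NK markers were detected in a few T cells, each less often than outside the rule. These were Klre1 (2.985% and 1.852% of T cells), Klrb1c (0.746% and 1.235%) and Eomes (0.746% and 0.309%). Of 14 T cell markers the rule used 4, and each of the other 10 was detected in at least 35.07% of the T cells of either library. Of these, Trbc1 was about as frequent in the T_NK cells outside the rule (48.0% and 51.1%). Mast cell markers were at or near 0.

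T cells made up 2.17% of the CIN_high library (95% counting interval 1.82% to 2.56%) and 4.10% of the CIN_low library (3.67% to 4.56%). As a share of immune cells they were at 4.18% (3.52% to 4.93%) and 5.53% (4.96% to 6.15%), and as a share of the T_NK cells at 57.3% and 78.3%. The T cells held 636171 and 1557686 UMIs, with a median of 3838 and 3828 UMIs per cell. They shared 0 barcodes between the libraries. Transcripts of other cell types were more frequent in CIN_low T cells. S100a8, a neutrophil gene, had a UMI in 35.1% of CIN_high and 84.9% of CIN_low T cells, and Lyz2, a macrophage gene, in 21.6% and 36.4%. The summed level of 10 neutrophil genes averaged 46.8 and 89.8 UMIs per 10000 (cells ranged up to 1563.8 and 2706.4), that of 12 macrophage genes 13.1 and 32.2. Scrublet, a doublet caller, marked 3 (2.24%) and 20 (6.17%) of the T cells. The CIN_low library was higher in each of these. For Trdc, Il17a, Tnfsf8, Pxdc1, Klrd1, Penk, Tff1 and 5 genes of regulatory cells, shares are also given without marked doublets and without T cells with at least 2 markers of 1 other lineage. That filter did not use neutrophil genes, and S100a8 was still found in 29.2% and 91.8% of the regulatory cells it left.

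Most T cells carried CD4. Each gate below needs a transcript of its gene, and a cell without one is not shown to lack it. Cd4 without Cd8a or Cd8b1 was detected in 81 CIN_high T cells (60.4%, 51.6% to 68.8%) and 217 CIN_low T cells (67.0%, 61.6% to 72.1%). CD8 cells, with Cd8a or Cd8b1 and no Cd4, were rare in both libraries, with 5 (3.73%, 1.22% to 8.49%) and 12 cells (3.70%, 1.93% to 6.38%). Foxp3 was detected in 32 (23.9%, 16.9% to 32.01%) and 87 T cells (26.9%, 22.1% to 32.03%). Trdc, the constant gene of the delta chain, was detected in 26 CIN_high cells (19.4%, 13.1% to 27.1%) and 30 CIN_low cells (9.26%, 6.34% to 12.9%), the gate that differed most between the libraries and whose intervals did not overlap. It held 22 of 108 (20.4%, 13.2% to 29.2%) and 19 of 205 cells (9.27%, 5.67% to 14.1%) without marked doublets and T cells with at least 2 markers of 1 other lineage, and there the intervals overlapped. With each cell thinned to 1500 UMIs, which left out 8 and 27 shallower cells, the gamma-delta shares were 19.8% and 8.08%, the CD4 shares 34.9% and 40.7%, the regulatory shares 14.3% and 15.8% and the CD8 shares 2.38% and 3.37%. In myeloid cells, taken for comparison, the shares were 0.307% and 0.262% for Trdc, 1.54% and 1.48% for Cd4 and 0.137% and 0.224% for Foxp3. Their median depths were 5721.5 and 6171 UMIs. None of the gate genes was found in 17 (12.7%) and 37 T cells (11.4%).

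**Figure D1:**
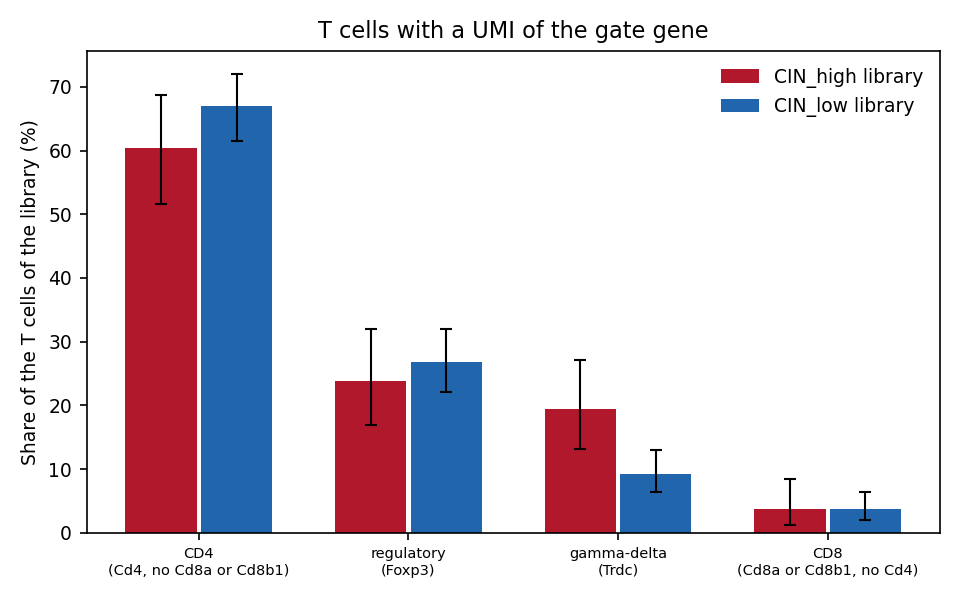
Share of the T cells of each library (percent, vertical axis) with a UMI of each gate gene, for 134 CIN_high and 324 CIN_low T cells, with bars for the share and whiskers for the exact 95% counting interval. The gamma-delta share was 19.4% in CIN_high and 9.26% in CIN_low, while the intervals of the other 3 gates overlapped.

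The gamma-delta gate hardly overlapped the others. Foxp3 and Trdc met in 0 cells, Cd4 and Trdc in 1 cell of each library, and Trac, the constant gene of the alpha chain, was found in 2 of 26 and 3 of 30 gamma-delta cells against 29 of 32 and 80 of 87 regulatory cells. Trbc1, of the beta chain, did not follow the gates, with 16 of 26 and 18 of 30 gamma-delta cells and 14 of 32 and 46 of 87 regulatory cells. On chromosome 14 (mm10, GENCODE vM21), Trdv4 (chr14:54074905-54075515) and Trdc (chr14:54142851-54148868) lie before Trac (chr14:54220521-54224206).

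The gamma-delta cells carried genes known from the IL-17-making kind in both libraries. Among genes with enough cells, 92 of 1860 (4.95%) were at least 2-fold higher in both libraries than in the other T cells. At least 2-fold lower were 120 of 2661 (4.51%). Gamma-delta cells were shallower, with medians of 2906.5 (CIN_high) and 2928.5 UMIs (CIN_low) against 4239.5 and 3895. With each cell thinned to 1500 UMIs, 45 of the 92 and 34 of the 120 genes were counted again. Trdv4, a delta chain variable segment, had a UMI in 23 of 26 CIN_high and 22 of 30 CIN_low gamma-delta cells (levels 11.4 and 11.7 UMIs per 10000) and held 1 and 0 UMIs in the other T cells. Tcrg-V6, the gamma segment with which it pairs in a mucosal subset that arises before birth, was found in 10 and 7 cells, of which 9 and 6 also held Trdv4. Cd163l1, a scavenger receptor gene known from IL-17-making gamma-delta cells (chr7:140218267-140231145), was at 13.1 UMIs per 10000 in CIN_high (22 of 26 cells) and 13.8 in CIN_low (26 of 30 cells). Outside the gate it had 0 UMIs in the CIN_high library, which makes it at least 237.8-fold higher against a floor of 3 UMIs over the group, and a level of 0.0828 in the CIN_low library (166.2-fold). Blk, a Src family kinase that such cells use (chr14:63372836-63417037), was found in 16 of 26 and 10 of 30 gamma-delta cells (levels 3.89 and 1.88) and in 0 other T cells. Clnk, an adaptor of antigen receptor signalling, Abi3bp and Npnt, both of the extracellular matrix, and Tcrg-C4 were also among the 8 leading genes. Npnt was at 0.953 in CIN_high and 1.99 in CIN_low gamma-delta cells.

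Several genes abundant in the other T cells were low or at 0 in gamma-delta cells. Ctla2a, a cysteine protease inhibitor gene, had 0 UMIs in CIN_high gamma-delta cells against a level of 13.1 in the other T cells, and 0.577 against 12.4 in CIN_low. Tnfrsf4, which encodes the costimulatory receptor OX40, stood at 0 against 11.3 and at 0.504 against 10.3, and Tnfrsf18, which encodes GITR, at 0.377 against 7.37 and 0.210 against 6.34. Fabp5, a fatty acid carrier, was 14.7-fold and 15.8-fold lower. Cxcr6, a receptor that guides T cells into tissue, was in contrast found in 25 of 26 and 27 of 30 gamma-delta cells, and the inhibitory receptor gene Pdcd1 in 16 and 20. Gzmb, which encodes the protease granzyme B, was found in 14 of 26 (53.8%, 33.4% to 73.4%) and 19 of 30 cells (63.3%, 43.9% to 80.1%), against 7.02% and 16.8% of CD4 cells without Foxp3.

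**Figure D2:**
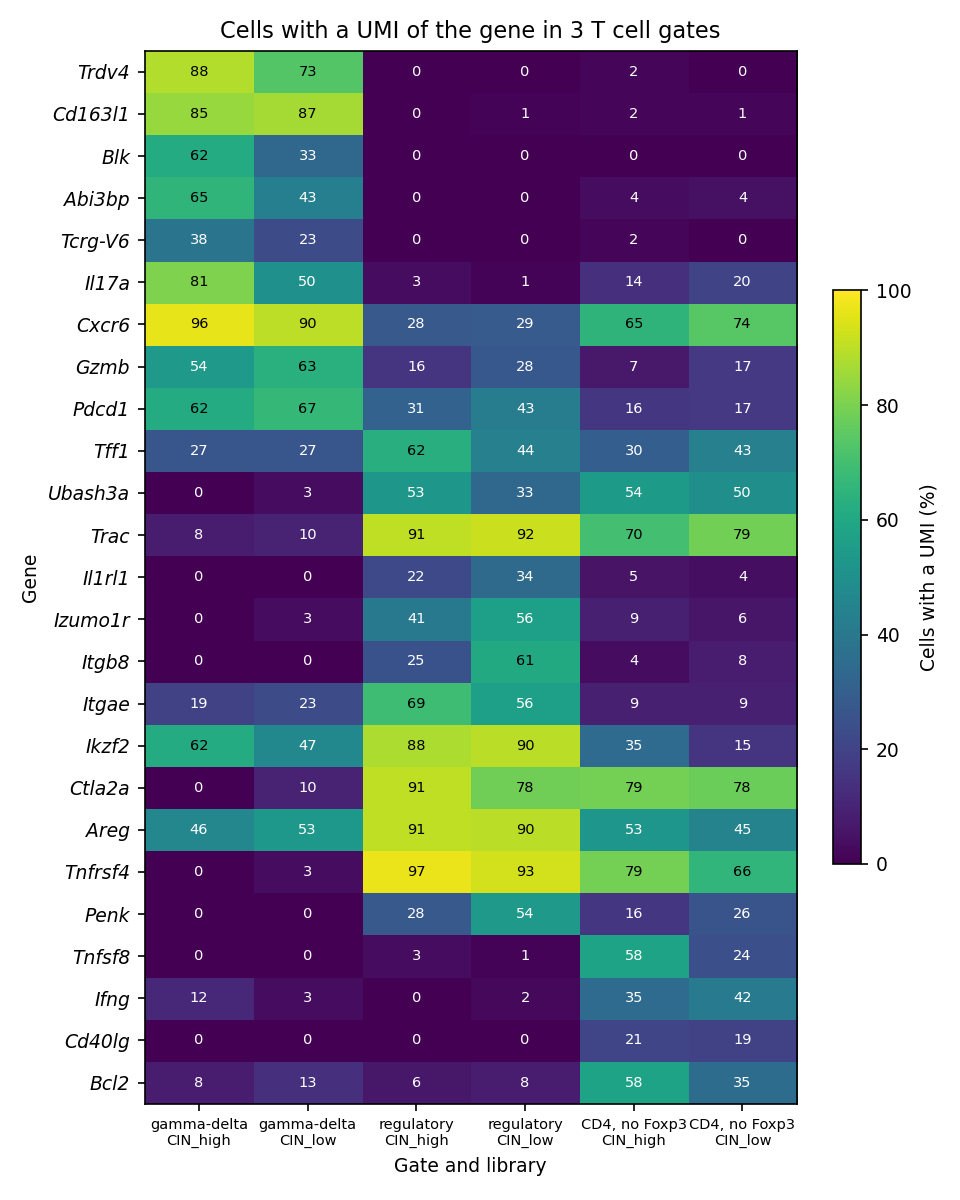
Percent of cells with a UMI (colour and printed number) of 25 genes (rows) in the gamma-delta, regulatory and CD4 without Foxp3 gates of each library (columns). Trdv4, Cd163l1 and Blk were found almost only in gamma-delta cells, and Tnfrsf4 was found in 96.9% and 93.1% of regulatory cells and in 0% and 3.33% of gamma-delta cells.

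Most T cells with Il17a were gamma-delta cells in the CIN_high library and CD4 cells in the CIN_low library. Il17a, the gene of this cytokine (chr1:20730905-20734496), was found in 32 CIN_high and 60 CIN_low T cells, at 9.65 and 6.69 UMIs per 10000 over all T cells. Of the CIN_high cells with Il17a, 21 of 32 (65.6%, 46.8% to 81.4%) were gamma-delta and 7 (21.9%, 9.28% to 40.0%) were CD4 cells without Foxp3 or Trdc. Of the CIN_low cells with Il17a, 15 of 60 (25.0%, 14.7% to 37.9%) were gamma-delta and 33 (55.0%, 41.6% to 67.9%) such CD4 cells. By transcripts, gamma-delta cells held 331 of 439 Il17a UMIs in CIN_high and 277 of 868 in CIN_low. Within the gamma-delta gate Il17a was found in 80.8% (60.6% to 93.4%) and 50.0% of cells (31.3% to 68.7%), at levels of 37.9 and 21.8, and after thinning in 68.0% and 36.0%. Those intervals overlapped. Without marked doublets and T cells with at least 2 markers of 1 other lineage, gamma-delta cells were 18 of 25 (72.0%) and 11 of 36 (30.6%) of the cells with Il17a. Il17f, a close relative, was found in 0 and 1 gamma-delta cells, and Il22, which acts on epithelium, in 0 of either library. Regulatory cells held Il17a in 1 of 32 and 1 of 87 cells, and myeloid cells in 0.239% and 0.224%.

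Regulatory cells were compared with CD4 cells without Foxp3 within each library, and genes were counted where both libraries agreed in direction. The regulatory gate did not require Cd4, which was detected in 25 of its 32 CIN_high and 63 of its 87 CIN_low cells. Of 3043 genes, 131 (4.3%) were at least 2-fold higher in both libraries in Foxp3 cells than in CD4 cells without Foxp3, and of 2405 genes 69 (2.87%) at least 2-fold lower. Il1rl1, the gene of the IL-33 receptor that marks tissue regulatory T cells, was at 2.46 UMIs per 10000 against 0.133 in CIN_high and 2.05 against 0.0821 in CIN_low, 18.6-fold and 25.0-fold higher. Izumo1r, which encodes folate receptor 4, was 9.87-fold and 10.1-fold higher, Itgae, the integrin chain CD103 that binds epithelial cadherin, 9.51-fold and 6.69-fold, and Ikzf2, the transcription factor Helios, 5.37-fold and 6.06-fold. Itgb8, an integrin chain that activates TGF-beta (chr12:119158022-119238802), was 6.85-fold and 7.94-fold higher. Pcsk1, a prohormone convertase, was at 2.45 against 0.190 and 2.87 against 0.490. Fuz and Ccdc184 were the other 2 leading genes. Areg, a growth factor gene by which regulatory T cells support epithelial repair, was found in 29 of 32 and 78 of 87 regulatory cells (levels 52.6 and 45.2) and in 52.6% and 44.7% of CD4 cells without Foxp3. The depth of the 2 gates was not equal. Medians were 5394.5 (CIN_high) and 4630 UMIs (CIN_low) for regulatory cells and 3882 and 3879 for CD4 cells without Foxp3. With each cell thinned to 1500 UMIs, 30 of the 131 higher and 17 of the 69 lower genes were counted again.

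Ifng, Cd40lg, Bcl2 and 2 genes of TNF family ligands were higher in CD4 cells without Foxp3 than in regulatory cells. Ifng, the gene of interferon gamma, was at 6.02 UMIs per 10000 in CIN_high (20 of 57 cells) and 7.51 in CIN_low (67 of 161 cells), against 0 UMIs in 32 CIN_high regulatory cells and a level of 0.0785 in CIN_low ones. Against a floor of 3 UMIs in the CIN_high regulatory gate this was at least 36.4-fold, and in CIN_low it was 95.6-fold. Cd40lg, which encodes the CD40 ligand of helper cells, was found in 12 of 57 and 31 of 161 cells and in 0 regulatory and 0 gamma-delta cells. The survival gene Bcl2 was at 3.81 against 0.120 and 2.04 against 0.142, and Tnfsf11, the gene of RANKL, was 10.6-fold and 33.8-fold lower in regulatory cells. Tnfsf8, which encodes the CD30 ligand, was at 4.39 against 0.0758 and 2.25 against 0.0256, and its share among CD4 cells without Foxp3 was 57.9% (44.1% to 70.9%) in CIN_high and 24.2% (17.8% to 31.6%) in CIN_low. The share was 61.4% and 26.04% without marked doublets and T cells with at least 2 markers of 1 other lineage. Nmrk1, Pde3b, Ms4a4b and Cd96 were also among the 8 leading genes in this direction. Il17a and Ifng were found together in 4 CIN_high and 17 CIN_low T cells. With 5 and 12 cells, the CD8 gate was too small for a comparison of genes; Ccl5, a chemokine gene of cytotoxic cells, was found in 3 of 5 and 11 of 12 of them.

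Between the libraries, few genes with ample transcripts differed. Of 6867 genes tested, 598 (8.71%) were at least 1.5-fold higher and 976 (14.2%) at least 1.5-fold lower in the CIN_high T cells, with a median log2 ratio of -0.02. Genes with few UMIs can pass this line by counting error alone. Among the 297 genes with at least 5 UMIs per 10000 in either library, a line chosen after the values were seen, 2 were higher and 14 lower by that factor. The intervals beside the genes below are 95% counting intervals of the ratio of summed UMIs.

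Genes were named where 10% of T cells or more held them and their level reached 0.5, and genes over 10 times higher in another cell type were left out. By this rule the gene highest in CIN_high relative to CIN_low was Blk, at 0.756 and 0.175 UMIs per 10000 (30 and 20 UMIs), 4.33-fold higher (2.02 to 6.82), and all of its cells were in the gamma-delta gate. Ccr6, the receptor for the gut chemokine CCL20 (chr17:8236043-8257141), was at 0.565 and 0.201, 2.81-fold higher (1.49 to 4.03), and its cells were not gamma-delta, where it had 0 UMIs. Ngly1, a deglycosylating enzyme, was 3.20-fold higher (1.81 to 5.14), Rab37, a small GTPase of secretion, 2.81-fold (1.69 to 4.96) and Exoc4, a subunit of the exocyst, 2.82-fold (1.35 to 3.33). Ipmk, Srgap3, Sinhcaf, Abhd8 and Zdhhc3 were between 2.30-fold and 3.24-fold higher with intervals above 1. The intervals of Ano6 (0.983 to 3.10) and Asnsd1 (0.991 to 2.50) included 1. Trdc was at 5.87 and 3.31, 1.77-fold higher (1.44 to 1.98).

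Among the genes kept by the same rule, which left out Ccl3, Pxdc1 was lowest in CIN_high relative to CIN_low, at 0.0989 UMIs per 10000 (5 UMIs in 4 cells) against 1.07 (167 UMIs in 67 cells), 10.8-fold lower (5.73 to 42.6). The gap lay mainly in CD4 cells without Foxp3, with 4 of 57 cells (7.02%) against 50 of 161 (31.1%, 24.0% to 38.8%), and in gamma-delta cells, with 0 of 26 against 6 of 30. T_NK cells outside the rule did not share it, with levels of 1.41 and 1.58, nor did myeloid cells, at 0.537 and 0.339. Klrd1, which encodes the NK receptor chain CD94 (chr6:129591782-129598775), was at 0.314 and 1.28, 4.07-fold lower (2.23 to 5.83), with 5 of 57 cells (8.77%) against 44 of 161 (27.3%) among CD4 cells without Foxp3. Without marked doublets and T cells with at least 2 markers of 1 other lineage, Pxdc1 was found in 6.82% and 29.2% of these CD4 cells and Klrd1 in 4.55% and 26.0%. T_NK cells outside the rule held Klrd1 at 5.57 and 5.30. Pxdc1 and Klrd1 were found together in 0 of 134 and 23 of 324 T cells. Itgb8 was 2.60-fold lower (1.54 to 3.60) and Ccr8, a chemokine receptor of regulatory T cells in tumours, 3.07-fold lower (1.57 to 6.19). Ccl4, a chemokine gene of activated T cells and myeloid cells, was at 0.914 and 2.93, and Ccr1, a chemokine receptor gene, at 0.908 and 2.19. Myeloid cells held Ccl4 at 3.49 in CIN_high and 16.1 in CIN_low, and B cells at 10.8 (40 cells) and 9.95 (93 cells); their part in the T cell value was not tested. Faim, Sv2c, Rnf145, Plcxd2, Myo10 and Paics were between 2.37-fold and 3.32-fold lower with intervals that excluded 1.

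**Figure D3:**
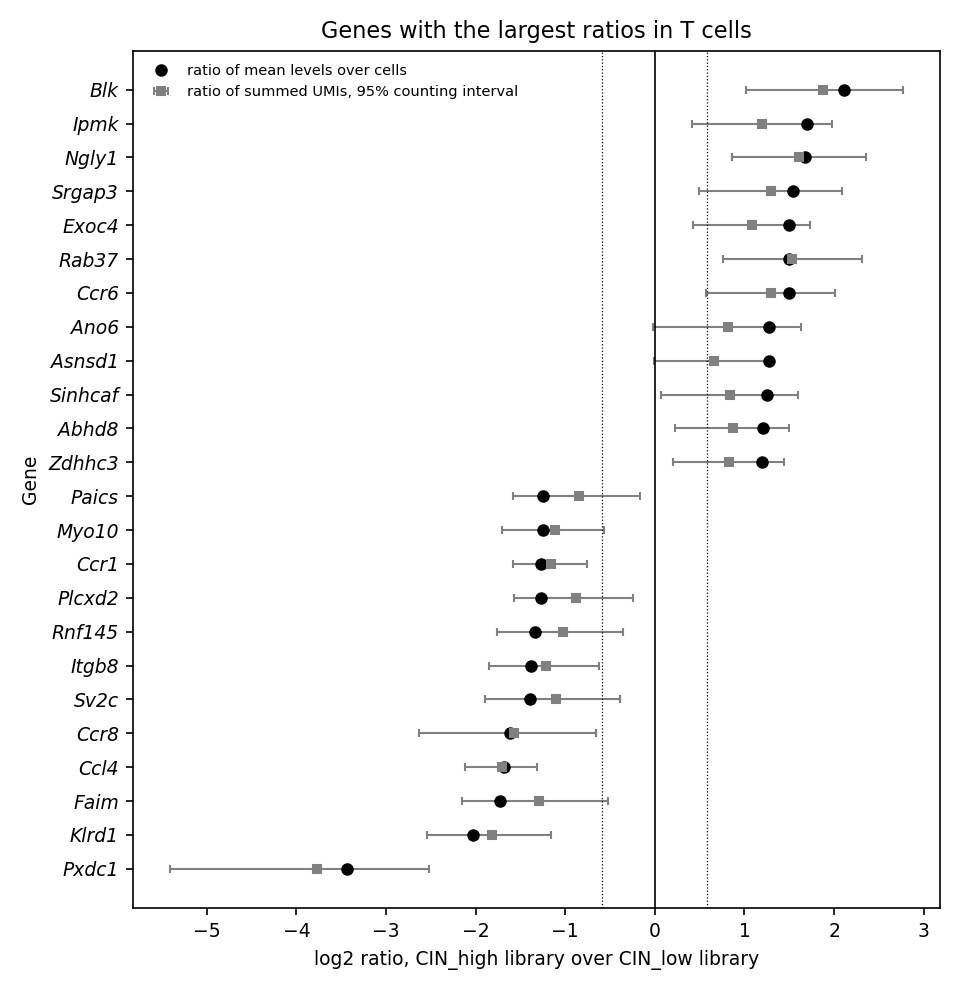
Log2 ratio of levels in T cells, CIN_high over CIN_low (horizontal axis), for the 12 genes with the largest ratio each way among the genes kept by the naming rule (rows), with circles for the ratio of mean levels and squares with whiskers for the ratio of summed UMIs and its 95% counting interval. Dotted lines mark 1.5-fold; Blk was the highest of these (log2 2.12) and Pxdc1 the lowest (log2 -3.43).

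Read by list, more gamma-delta and type 17 genes were higher in CIN_high than the background, and more naive and cytotoxic genes lower. The background is the share over all tested genes, 8.71% higher and 14.2% lower. Several lists lay near it or on both sides, with 2 of 27 cytokine receptor genes lower and 0 higher, 2 of 12 costimulation genes lower and 2 higher, and 2 of 14 tissue residence genes lower and 3 higher. Of 8 measured gamma-delta genes 5 were at least 1.5-fold higher and 0 lower (median log2 0.87), namely Trdc, Tcrg-C4, Trdv4, Blk and Cd163l1. With gamma-delta cells left out, 0 were higher, but that count was fixed in advance. Trdc defines the gate, and the others kept too few UMIs for a test. In CIN_high and CIN_low these were 0 and 0 UMIs of Blk, 1 and 0 of Trdv4, 0 and 6 of Cd163l1 and 2 and 6 of Tcrg-C4. Of 15 type 17 genes 4 were higher and 0 lower (median 0.27). Blk, Cd163l1 and Ccr6 were among them. Without gamma-delta cells, where Blk and Cd163l1 had too few UMIs for a test, 2 were higher, and in the CD4 gate alone 1. Il17a itself, at 1.44-fold (1.10 to 1.39 for summed UMIs), did not reach the line. Its log2 ratio of 0.53 changed sign, to -0.08 without T cells with at least 2 markers of 1 other lineage, -0.85 without gamma-delta cells and -1.39 in the CD4 gate. Of 13 cell cycle genes 4 were higher, Top2a and the helicase subunits Mcm2, Mcm3 and Mcm6, and 1 lower, Tyms (median 0.24).

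Genes of naive and recirculating cells were lower in CIN_high, with 4 of 9 past the line and 0 higher (median -0.49), but 1 in the CD4 gate alone. Ccr7, which leads T cells to lymph nodes, was at 0.682 and 1.20 (1.76-fold, 1.31 to 2.41), and Lef1 and Klf2 were also past the line. The log2 ratio of Ccr7, -0.81, was -0.04 without T cells with at least 2 markers of 1 other lineage, -0.48 in the CD4 gate and -0.47 after thinning, all within the line. Of 15 cytotoxic genes 4 were lower and 0 higher (median -0.37), Klrd1, Prf1, Nkg7 and Fasl. By the ratio of summed UMIs 2 of the 15 were lower, near the 12.7% of all tested genes lower in that setting. In the CD4 gate more were lower than in the main comparison. Gzmb stood at 3.01 and 4.00 and Gzma at 4.87 and 3.46. Gzma changed sign in the CD4 gate (log2 0.49 to -0.61), and Gzmb passed the line without T cells with markers of another lineage (-0.87). Of 14 type 1 genes 3 were lower and 0 higher (median -0.18): Tbx21, the regulator of interferon gamma cells, at 0.205 and 0.465 (log2 -1.18, and -0.24 in the CD4 gate), Ccl4, and Ccl3 with 1 UMI against 221. Myeloid cells held Ccl3 at 7.35 UMIs per 10000 in the CIN_low library and 1.55 in the CIN_high library, and it was found in 0 of 26 and 1 of 30 gamma-delta cells. Ifng was at 3.67 and 4.40, and its log2 ratio changed sign, from -0.26 to 0.56, without T cells with markers of another lineage. Of 20 regulatory genes 4 were lower, Itgb8, Ccr8, Klrg1 and Lrrc32, the gene of the TGF-beta carrier GARP, and 1 was higher, Ebi3, a subunit of IL-35, whose interval included 1 (0.851 to 2.24). Foxp3 was at 1.29 and 1.56 (log2 -0.27, and -0.73 without T cells with markers of another lineage).

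The shares of receptor and checkpoint genes past the line were near the background. Of 23 genes of the receptor complex and its signalling 3 were lower, Cd2, Cd6 and Cd27, and 0 higher (median -0.26). This list includes genes of the rule, and its median is the value of Cd3g. Its count and median are thus not independent of how the cells were chosen. The levels of the 4 genes of the rule describe the cells it kept: Cd3d stood at 9.41 and 11.2, Cd3e at 5.03 and 4.27, Cd3g at 13.1 and 15.8, and Trac at 4.64 and 6.52. Cd4 was at 3.97 and 4.31. Of 14 checkpoint genes Btla was higher (its interval, 0.515 to 2.50, included 1) and Havcr2 and Tigit lower, Tigit at 0.0493 and 0.293 (5.94-fold, 1.36 to 14.6). Pdcd1 (1.43 and 1.51), Ctla4 (7.35 and 9.23) and Lag3 (0.940 and 1.11) were within 1.5-fold, as were the costimulatory gene Icos (8.02 and 11.2), Cd28 (1.67 and 2.30), the IL-2 receptor chain gene Il2ra (4.01 and 5.83) and the residence genes Cd69 (3.45 and 2.88), Itgae (1.69 and 1.76) and Cxcr6 (4.76 and 5.23). Some of these passed the line in part of the cells. Without T cells with at least 2 markers of 1 other lineage the log2 ratio was -0.61 for Icos and -0.89 for Il2ra, and in the CD4 gate it was -0.77 for Lag3 and -0.63 for Cxcr6. Lag3 turned to 0.37 after thinning. Tcf7, kept by long-lived T cells, was at 0.352 and 0.312, and Gata3, of type 2 and regulatory cells, at 1.06 and 0.865. Cd8a, Cd8b1 and Gzmk were under the minimum for a test. Of 27 early activation genes 5 were lower and 0 higher, among them Fos at 0.741 and 1.92 and Ier3 at 0.617 and 1.68, and other cell types with at least 50 cells held up to 56.7 and 34.8 UMIs per 10000 of Fos. Of 14 interferon genes 1 was lower (Irf7), and of 24 ribosomal protein genes 0 passed the line (median 0.19). Genes of other lineages were also lower in CIN_high T cells, with 8 of 9 neutrophil genes (median -1.54), 10 of 11 macrophage genes (median -1.66), 3 of 6 epithelial genes and 3 of 4 B and plasma cell genes past the line and 0 of these higher. T cells with at least 2 markers of 1 lineage outside neutrophils, NK and innate lymphoid cells were 25 (18.7%) and 119 (36.7%). Without them 625 of 5225 tested genes (11.96%) were lower, and 7 regulatory genes.

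**Figure D4:**
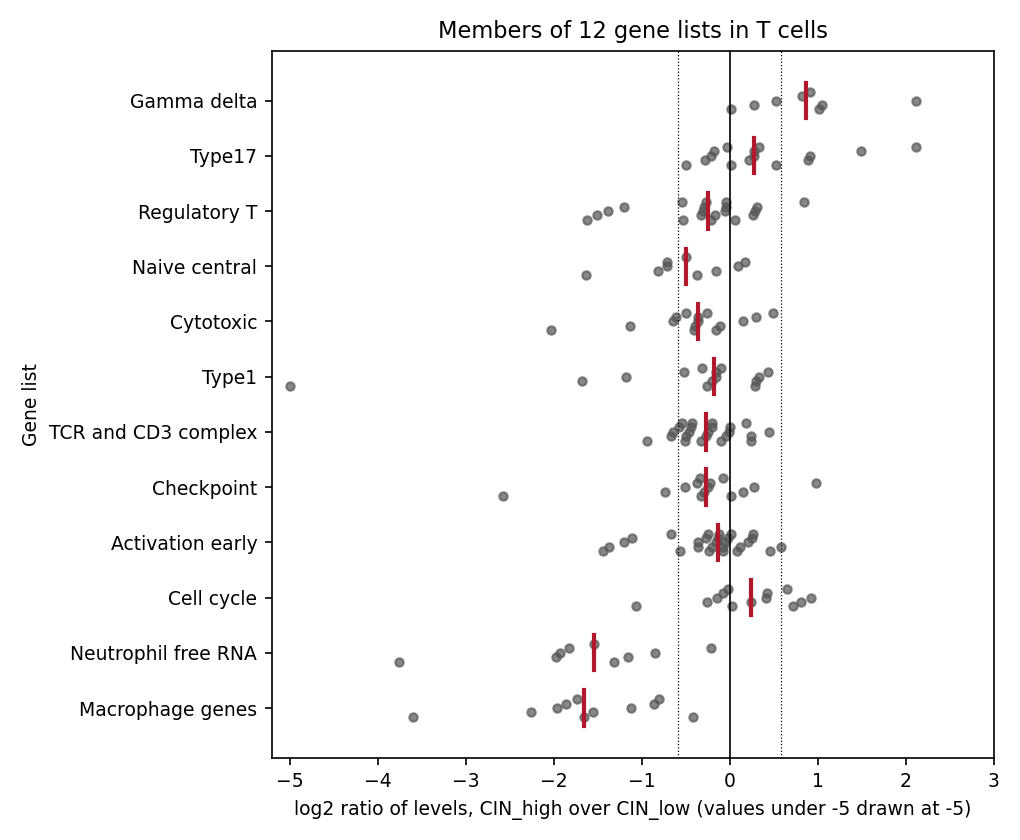
Log2 ratio of levels in T cells, CIN_high over CIN_low (horizontal axis), for each measured member (points) of 12 gene lists (rows), with the median of each list as a red bar and 1.5-fold as dotted lines. Gamma-delta genes lay at or above 0 with a median of 0.87, while neutrophil and macrophage genes had medians of -1.54 and -1.66.

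Among regulatory cells, the shares with Itgb8 and Ccr7 were higher in CIN_low and the share with Ccr6 in CIN_high. The shares with Areg were 90.6% and 89.7%, and those with Itgae 68.8% and 56.3%. This comparison and its genes were chosen after their values were seen. Itgb8 was found in 8 of 32 CIN_high regulatory cells (25.0%, 11.5% to 43.4%) and 53 of 87 CIN_low ones (60.9%, 49.9% to 71.2%), at 1.25 and 2.85 UMIs per 10000. Klrg1, an inhibitory receptor gene of mature tissue regulatory cells (chr6:122270596-122282882), was found in 9 of 32 (28.1%, 13.8% to 46.8%) and 41 of 87 (47.1%, 36.3% to 58.1%). Il1rl1 was found in 7 and 30 cells, and Ccr8 in 5 and 28. Ccr7 was found in 2 of 32 (6.25%, 0.766% to 20.8%) and 27 of 87 (31.0%, 21.6% to 41.9%). Ccr6 went the other way, with 10 of 32 (31.2%, 16.1% to 50.0%) and 8 of 87 (9.20%, 4.05% to 17.3%). The intervals of Itgb8 and Ccr7 did not overlap, and those of Klrg1 and Ccr6 did. Itgb8 shared a cell with Ccr6 in 1 CIN_high and 5 CIN_low cells. Maf, a transcription factor of gut regulatory cells, was found in 30 of 32 and 78 of 87, Ikzf2 in 28 and 78 and Gata3 in 16 and 40. Thinned to 1500 UMIs, Itgb8 was at 9.38% and 26.2%, Ccr7 at 3.12% and 16.7% and Ccr6 at 9.38% and 2.38%. S100a8 was found in 28.1% and 90.8% of the same cells, and its part in these differences was not tested. Without marked doublets and T cells with at least 2 markers of 1 other lineage, Itgb8 was found in 6 of 24 (25.0%) and 34 of 61 cells (55.7%), Klrg1 in 6 and 28, Ccr8 in 3 and 15, Ccr6 in 8 and 4 and Ccr7 in 2 and 16, and the intervals of all 5 genes overlapped. In CIN_high gamma-delta cells Itgb8 had 0 UMIs, as in those of CIN_low.

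**Figure D5:**
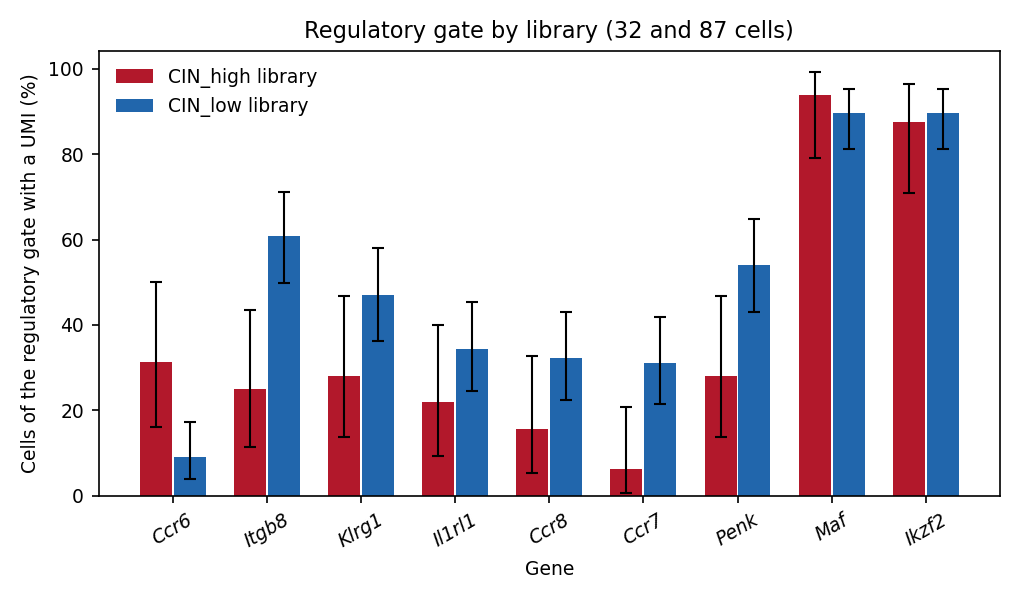
Share of the cells of the regulatory gate (percent, vertical axis) with a UMI of 9 genes in 32 CIN_high and 87 CIN_low cells, with exact 95% counting intervals as whiskers. The share was higher in CIN_high for Ccr6 and in CIN_low for Itgb8, Klrg1, Il1rl1, Ccr8, Ccr7 and Penk, and Maf and Ikzf2 were found in 93.8% and 87.5% of CIN_high cells and in 89.7% of CIN_low cells.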

How the data were processed

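Single-cell suspensions from distal colon adenomas were profiled on the 10x Genomics platform, and the submitters' processing notes name Cell Ranger 2.1.1, Seurat and the mm10 build. The authors deposited 1 matrix on the natural log scale: each value is ln(1 + UMIs per 10000), as shown by back-transformed cells that all add up to 10000. For filters, annotation release and any correction of free RNA or doublets, the sources used here give nothing. UMIs were recovered by dividing by the smallest non-zero value of a cell (100% whole within 0.01).

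Levels are UMIs per 10000 averaged over cells, and a ratio is CIN_high over CIN_low unless a sentence says lower. Genes were tested with a UMI in at least 5% of the T cells of 1 library and 30 UMIs in all. Shares carry exact Clopper-Pearson and ratios exact conditional binomial intervals (95%), which cover counting error only. Values of 0 were set to 3 UMIs for a ratio. The design foresaw tests between libraries only as values, since each class had 1 library. The named genes were the 12 with the largest ratio each way with a UMI in at least 10% of T cells and a level of 0.5, without predicted, receptor segment, hemoglobin, mitochondrial, ribosomal and sex-linked genes and without genes over 10 times higher in another cell type (86 genes). For gates they were the 8 leading genes each way, against other cell types the 15 leading genes, and a set of T cell genes was always given; some items are not reported here. The members and the 29 gene lists were chosen with earlier results of these data known.

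Scrublet in Scanpy 1.11.5 (expected rate 6%) marked 142 and 249 cells of the libraries, which stayed in. Coordinates are those of GENCODE vM21, promoters those of RefSeq. The functions were tested on simulated data. Python 3.11.15, numpy 2.4.6, pandas 2.3.3, SciPy 1.17.1 and matplotlib 3.10.9 were used.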

Additional observations from a re-analysis of the deposited data

Results flagged for a closer look

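CD3 transcripts were also present in cells that the authors annotated as other types and that enter no T cell comparison. Outside T_NK, 64 of 13449 cells (0.476%, 0.367% to 0.607%) held at least 2 of Cd3d, Cd3e, Cd3g and Trac. Of these, 46 were myeloid (14 of 2930 CIN_high and 32 of 5348 CIN_low cells), 16 epithelial (2 and 14) and 2 fibroblasts. Their median depth was 10918.5 UMIs against 3838 and 3828 in the T cells, and Scrublet marked 8 of them. Trac by itself was found in 11.6% (CIN_high) and 15.4% (CIN_low) of epithelial cells, at levels of 0.0841 and 0.117 UMIs per 10000, while Cd3e was found in 0.228% and 0.754%.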

How the results depend on the processing

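With at least 3 CD3 genes, T cells were 1.745% (CIN_high) and 3.465% (CIN_low) of all cells. By the rule of 2 genes they were 4.182% and 5.534% of immune and 57.26% and 78.26% of T_NK cells. Thinned to 1500 UMIs, the CD4 gate held 34.92% and 40.74% and the regulatory gate 14.29% and 15.82% of T cells; with at least 2 UMIs of the gate gene they held 41.79% and 42.59%, and 14.18% and 16.05%. Counts of genes at least 1.5-fold higher and lower are given with the genes tested, 6867 in the main comparison (8.71% and 14.2%). They were 139 and 205 of 3160 genes (4.399% and 6.487%) with a UMI in 20% of cells required. They were 2163 and 2393 of 11548 (18.73% and 20.72%) with 1 UMI on each side and no other filter. Thinned, they were 255 and 438 of 3308 (7.709% and 13.24%). In the CD8 gate they were 77 and 113 of 469 (16.42% and 24.09%). Without cells with markers of another lineage they were 474 and 625 of 5225 (9.072% and 11.96%). Lower cytotoxic genes numbered 2 by summed UMIs, 7 in the CD4 gate and 1 in the CD8 gate. Lower regulatory genes numbered 7 without cells with other markers and 1 in the CD8 gate, neutrophil genes 5 without marked doublets and 4 in the CD4 gate, and macrophage genes 4 without cells with other markers and 1 in the CD8 gate. Lower naive genes numbered 1 in the CD4 gate, 1 in the CD8 gate and 2 in the regulatory gate. Higher gamma-delta genes numbered 0 in the CD4 gate, 1 in the CD8 gate, 0 without gamma-delta cells and 0 in the regulatory gate, and type 17 genes 1, 1 and 2 (CD4, CD8, without gamma-delta cells). Without gamma-delta cells and in the regulatory gate, the 5 gamma-delta genes higher in the main comparison had too few UMIs for a test. Cd4 and Trdc met in 1 cell of each library, so the 0 of the CD4 gate was fixed in advance too. Thinned, 72 genes were higher and 53 lower in gamma-delta cells, and 54 higher and 24 lower in regulatory cells. Of the 92, 120, 131 and 69 genes counted without thinning, 45, 34, 30 and 17 were counted again. Of 628 ratios of named genes under alternatives, 575 stayed within the counting error of the main value, and 53 moved past it. The 575 include ratios with a filter at 2% or 20% of cells or a floor of 1 UMI, which repeat the main value by construction. Centring on the median of all genes moved each ratio by the same amount. The count therefore overstates how stable the ratios were. Of the genes past 1.5-fold, 0 changed sign. Of those within 1.5-fold, 14 did in 23 ratios, Il17a, Ifng, Gzma, Lag3 and Cd3g (0.86 in the CD8 gate) among them. The cause was not tested. The settings without gamma-delta cells, in the regulatory gate alone and without cells with other markers (for lists and gates) were chosen after seeing the data. No paired analysis was possible because each class had 1 library, which also left no replicate to leave out. The depth of 3838 and 3828 UMIs per T cell and the 134 and 324 cells limit what rare genes can show.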

Other observations

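Among the 15 genes that stood highest in T cells against the other annotated types with at least 50 cells in a library (T_NK cells outside the rule not counted), which included Cd3e, Cd3g, Cxcr6, Icos and Trbc1, was Tff1. Tff1 encodes a trefoil peptide known as a secreted product of stomach epithelium (chr17:31161395-31165277). Its transcripts were in 35.07% of the CIN_high T cells (level 4.02 UMIs per 10000) and 38.9% of the CIN_low ones (level 3.74), against 0.0760% and 0.580% of epithelial cells, which were deeper (medians of 14032.5 and 15364 UMIs). T_NK cells outside the rule held it in 2.0% and 1.11%, and the 21 CIN_low fibroblasts at a level of 0.253. Without marked doublets and T cells with at least 2 markers of 1 other lineage, the shares were 30.6% and 35.6%. Cxcr6 and Trbc1 were also high in T_NK cells outside the rule, at 3.50 and 2.84 and at 3.40 and 3.63. By gate it was found in 20 of 32 and 38 of 87 regulatory cells, 17 of 57 and 70 of 161 CD4 cells without Foxp3, and 7 of 26 and 8 of 30 gamma-delta cells. Ubash3a, a T cell phosphatase gene, lies on the same chromosome (chr17:31207873-31246892, on the opposite strand), and was found in 53 and 124 T cells, of which 25 and 65 also held Tff1. In gamma-delta cells, Ubash3a was found in 0 of 26 and 1 of 30 cells. Tmprss3, which lies between them, was found in 0 CIN_high and 3 CIN_low regulatory cells. Which transcripts were counted as Tff1 was not tested.

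Penk, the gene of the opioid precursor proenkephalin (chr4:4133531-4138819), had a level of 4.13 in the CIN_high T cells and 8.48 in the CIN_low ones, 2.05-fold lower in CIN_high (1.67 to 2.17 from summed UMIs). It was found in 9 of 32 (28.1%, 13.8% to 46.8%) and 47 of 87 regulatory cells (54.0%, 43.0% to 64.8%), in 15.8% and 26.1% of CD4 cells without Foxp3, and in 0 of 26 and 0 of 30 gamma-delta cells. Without marked doublets and T cells with at least 2 markers of 1 other lineage, it was found in 7 of 24 (29.2%, 12.6% to 51.1%) and 34 of 61 regulatory cells (55.7%, 42.5% to 68.5%). Myeloid cells held it in 0.239% and 0.505%. Of the T cells with Penk, 9 of 22 and 47 of 100 held Foxp3.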
